A study of Mus musculus with 22 samples.

Results

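The genes Clpx, Chka, Asap2, Nrg4 and Slc30a10 were chosen by their measured levels in mouse liver, which separated the model mice into 2 runs of title numbers, mice 76 to 82 and mice 83 to 94. Each gene was found by its symbol, 1 probe set per Entrez gene, and the set is 5 of the 13392 genes with a value. Dbp and Arntl were read beside them as markers of the phase of the circadian clock. None of the 5 belongs to the list of 21 clock genes used here. The values that chose the genes are those of the difference between the runs, so that difference is described below with no test.

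The study profiled liver RNA of 22 male C57BL/6J animals, each on its own array (Affymetrix HT MG-430, log2 values). The 3 controls had healthy liver after saline and oil injections, and they received vehicle. The 9 vehicle mice and 10 nintedanib mice carried the model, a single injection of the carcinogen N-nitrosodiethylamine (DEN) followed by weekly carbon tetrachloride (CCl4), which damages hepatocytes and causes fibrosis and liver cancer. They were then treated for 5 weeks with vehicle or with nintedanib at 50 mg/kg, a kinase inhibitor that acts on the receptors of several growth factors, and liver outside the tumours was taken. Numbers are those of the sample titles. Vehicle mice were 76 to 81 and 92 to 94, and nintedanib mice were 82 to 91, so that the first run holds 6 vehicle mice and 1 nintedanib mouse and the second run 3 and 9. The controls, mice 4, 49 and 50, belong to neither run. The labels used here state no batch, age, feeding state or hour of collection, and they mention several times of killing. Run therefore cannot be told apart from whatever differed between the mice of the 2 runs.

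In the liver clock, BMAL1, the product of Arntl, pairs with CLOCK to activate genes through E-boxes, among them Dbp and the Per genes. DBP in turn acts on genes with D-boxes, and the ROR and REV-ERB receptors set the level of Arntl itself, so that Arntl and Dbp peak at different hours of the day. Many liver genes of metabolism, transport and signalling also cycle. Clpx encodes the unfoldase subunit of the mitochondrial protease ClpXP, which also takes part in haem synthesis. Chka encodes choline kinase alpha, the first enzyme of phosphatidylcholine synthesis from choline. Asap2 encodes a GTPase-activating protein for Arf GTPases, which steer membrane traffic. Nrg4 encodes neuregulin 4, a secreted ligand of the receptor ErbB4. Slc30a10 encodes a transporter that exports manganese from cells, in liver and gut above all.

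Promoter sequences are shown for the members because their levels differed by run together with those of clock genes. The RefSeq promoter table of build GRCm38.p6 held a window for 4 of the 5 members, Asap2 being the exception, and the 250 bases before each gene's start are printed 5′ to 3′ on the gene's strand. They lie at chr9:65294010-65294259 on the plus strand for Clpx, chr19:3851523-3851772 on the plus strand for Chka, chr9:55283626-55283875 on the minus strand for Nrg4 and chr1:185454598-185454847 on the plus strand for Slc30a10. Capitals mark matches to clock motifs on either strand.
Clpx: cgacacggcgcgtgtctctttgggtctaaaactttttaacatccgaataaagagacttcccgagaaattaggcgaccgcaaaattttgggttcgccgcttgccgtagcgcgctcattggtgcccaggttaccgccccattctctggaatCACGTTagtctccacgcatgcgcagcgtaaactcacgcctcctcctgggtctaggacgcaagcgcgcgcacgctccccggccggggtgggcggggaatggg
Chka: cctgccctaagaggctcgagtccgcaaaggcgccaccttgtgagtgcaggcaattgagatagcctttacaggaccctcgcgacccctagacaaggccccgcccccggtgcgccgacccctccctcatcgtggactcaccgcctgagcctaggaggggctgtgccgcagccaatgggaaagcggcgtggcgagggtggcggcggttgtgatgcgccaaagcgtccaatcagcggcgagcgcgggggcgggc
Nrg4: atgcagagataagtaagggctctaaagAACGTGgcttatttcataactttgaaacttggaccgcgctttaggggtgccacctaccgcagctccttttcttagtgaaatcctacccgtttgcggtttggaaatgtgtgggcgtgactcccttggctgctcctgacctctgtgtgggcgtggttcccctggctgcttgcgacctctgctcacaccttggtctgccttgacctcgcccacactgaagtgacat
Slc30a10: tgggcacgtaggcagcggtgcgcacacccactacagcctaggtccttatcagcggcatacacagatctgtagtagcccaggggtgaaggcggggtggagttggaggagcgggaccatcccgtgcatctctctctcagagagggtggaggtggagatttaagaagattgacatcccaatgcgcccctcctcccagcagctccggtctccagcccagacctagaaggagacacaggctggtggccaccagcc
Both strands were searched for 4 motifs. The E-box reads CACGTG. Its variant reads CACGTT, which is read on the other strand as AACGTG. The D-box was taken as TTATGTAA, read on the other strand as TTACATAA, or as the palindrome TTACGTAA. The ROR element was searched by its consensus. The variant E-box was found once in Clpx, 101 to 96 bases before the start, and once in Nrg4, 223 to 218 bases before the start. Chka and Slc30a10 held none of the motifs in these 250 bases, and neither did the windows of Dbp and Arntl. Dbp and Arntl are clock genes, so the lack of a match in such a window says nothing about control by the clock. Among the 32851 promoter windows of the table, 6.02% held an E-box, 3.85% the variant, 0.931% a D-box, 0.332% a ROR element and 10.7% at least 1 of them. A match is a stretch of letters and says nothing about binding.

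Clpx was lower in the second run. In vehicle mice 76 to 81 its log2 level had a lowest value of 10.03, a median of 10.31 and a highest value of 10.60, and nintedanib mouse 82 had 10.18. Vehicle mice 92, 93 and 94 had 8.81, 8.61 and 8.40, and nintedanib mice 83 to 91 ran from 8.20 through a median of 8.41 to 8.88. Between the lowest mouse of the first run and the highest of the second lay a gap of 1.15. The means were 10.28 ± 0.20 (SD, n = 7) and 8.56 ± 0.23 (SD, n = 12), a log2 difference of -1.73 or 3.31-fold.

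Chka had the same form. Vehicle mice 76 to 81 ran from 6.14 through a median of 6.40 to 6.64, and mouse 82 had 6.38. Vehicle mice 92, 93 and 94 stood close together at 4.60, 4.67 and 4.69, inside the range of nintedanib mice 83 to 91, which ran from 4.29 through 4.88 to 5.14. The runs differed by -1.66, or 3.15-fold, with a gap of 0.997 between them. The second run was the more spread, with an SD of 0.29 against 0.20 in the first.

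Asap2 had the smallest run difference of the 5. Vehicle mice 76 to 81 ran from 4.28 through 4.66 to 4.86, with mouse 82 at 4.59. Vehicle mice 92, 93 and 94 had 3.60, 3.13 and 3.32, and nintedanib mice 83 to 91 ran from 3.27 through 3.42 to 3.60. The runs differed by -1.20, or 2.30-fold, and the gap was 0.68. Array medians over all genes lay between 2.83 and 3.09, so Asap2 in the second run was not far above them.

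Slc30a10 was also lower in the second run. Vehicle mice 76 to 81 ran from 6.51 through 6.72 to 6.83, and mouse 82 had 6.80. Vehicle mice 92, 93 and 94 had 5.13, 5.13 and 5.31, within the range of nintedanib mice 83 to 91 (4.68, median 4.95, up to 5.69). The difference was -1.60, or 3.04-fold, with a gap of 0.82.

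Nrg4 was the one member higher in the second run. It ran from 4.23 through 4.37 to 4.57 in vehicle mice 76 to 81, with 4.35 in mouse 82. Vehicle mice 92, 93 and 94 had 6.32, 6.12 and 6.06, and nintedanib mice 83 to 91 ran from 5.61 through 6.42 to 6.89. The difference was 1.87, or 3.66-fold, with a gap of 1.05. Its SD was 0.11 in the first run and 0.40 in the second, a ratio of 3.63, and for Slc30a10 the ratio was 2.58. The other members had ratios from 0.82 (Asap2) to 1.47 (Chka).

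The phase markers separated the same mice by more. Dbp ran from 5.04 to 6.19 in mice 76 to 82 and from 8.79 to 9.27 in mice 83 to 94, a difference of 3.58. Arntl ran from 5.90 to 6.17 and from 2.86 to 3.71, a difference of -2.71. Clpx, Chka, Asap2 and Slc30a10 thus had the direction of Arntl, and Nrg4 that of Dbp.

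**Figure D1:**
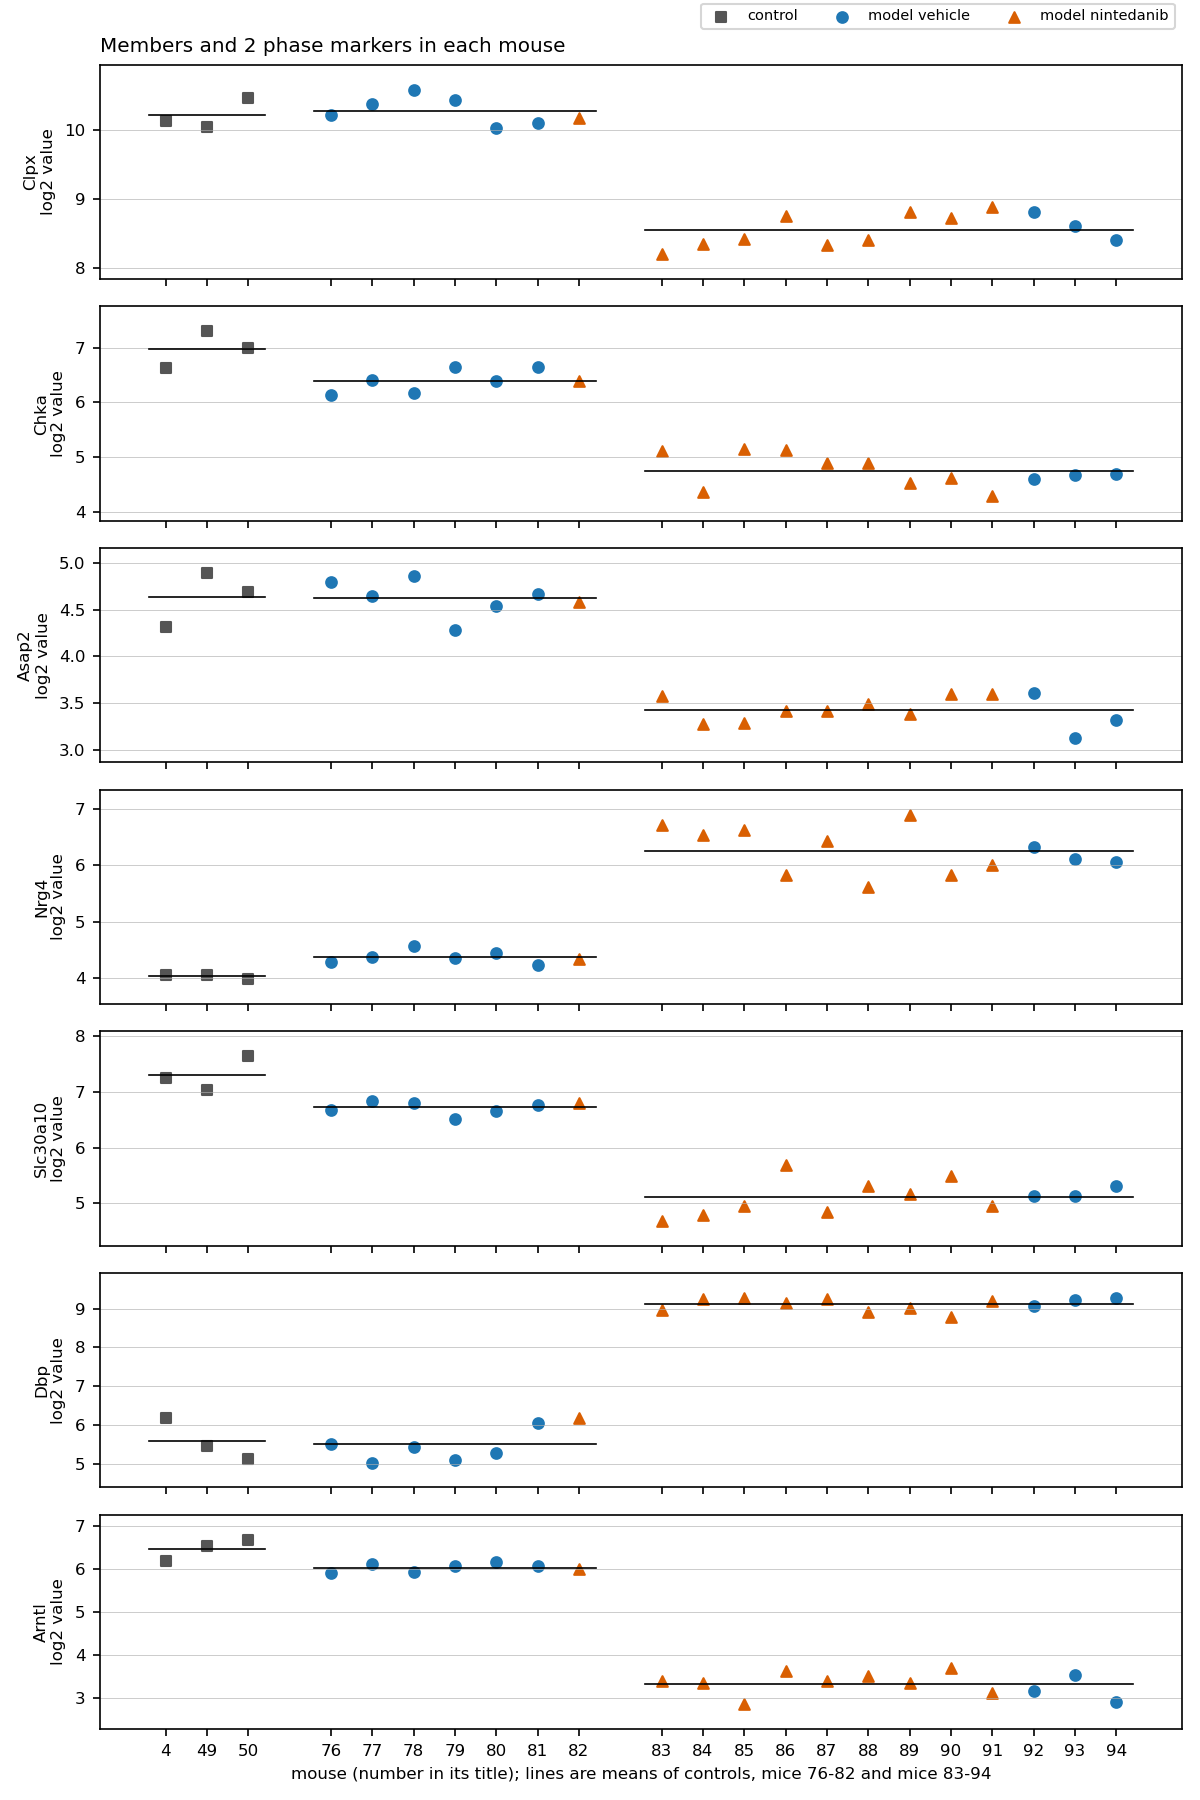
Log2 values of the 5 members and of Dbp and Arntl (vertical axes) in each of the 22 mice (horizontal axis, title number), with squares for controls, circles for vehicle and triangles for nintedanib, and lines for the means of controls, mice 76 to 82 and mice 83 to 94. In all 7 genes mouse 82, a nintedanib mouse, sits with vehicle mice 76 to 81, and vehicle mice 92 to 94 sit with nintedanib mice 83 to 91.

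Among the 13392 genes, ordered by the size of the difference between the runs in all 19 model mice, Dbp was number 1 and Arntl number 5. Nrg4 was number 12, Clpx 18, Chka 21, Slc30a10 22 and Asap2 43. Ordered by the gap between the runs, Clpx was number 5, Nrg4 6, Chka 10, Slc30a10 13 and Asap2 15. In vehicle mice alone, 72 genes (0.538%) differed by at least 1 on the log2 scale between mice 92 to 94 and 76 to 81 without overlap, and all 5 members were among them, as their choice required. Of these 72 genes 43 (0.321% of all genes) were higher and 29 (0.217%) lower in mice 92 to 94. Over all model mice, whatever the size of the difference, 141 genes (1.05%) had runs that did not overlap.

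Mouse 82 is the only nintedanib mouse of the first run, and it was counted there when the genes were chosen. For each of the 5 members its value lay within the range of vehicle mice 76 to 81, with differences from their mean between -0.12 (Clpx) and 0.09 (Slc30a10). Over all genes 70.9% of values of mouse 82 lay within that range. Its Arntl was also within the range, and its Dbp, at 6.19, was above the highest vehicle value of 6.07.

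The comparison of nintedanib with vehicle addresses the effect of the drug in the damaged liver, and for these genes the 2 groups differ in their runs. Over all model mice Clpx stood at 9.74 ± 0.87 with vehicle (SD, n = 9) and 8.70 ± 0.57 with nintedanib (SD, n = 10), a difference of -1.03. The pooled differences were -0.88 for Chka, -0.64 for Asap2, -0.94 for Slc30a10 and 1.11 for Nrg4. Each had the sign of the run difference, and since 9 of 10 nintedanib mice and 3 of 9 vehicle mice belong to the second run, they are given with no test.

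Within the second run the differences were small, and this comparison does not use the difference between run means. It is not free of the choice, however. Genes whose runs stand apart tend to have little spread within a run, which favours small differences here. Nintedanib mice 83 to 91 differed from vehicle mice 92 to 94 by -0.07 ± 0.15 for Clpx (SE, 95% interval -0.38 to 0.25). The value was 0.12 ± 0.18 for Chka (interval -0.25 to 0.49) and 0.10 ± 0.13 for Asap2 (-0.18 to 0.37). It was 0.10 ± 0.20 for Nrg4 (-0.31 to 0.52) and -0.09 ± 0.17 for Slc30a10 (-0.45 to 0.26). The adjusted p from limma over all genes lay between 0.937 and 0.969 for the 5 members (9 nintedanib, 3 vehicle mice).

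None of the 5 members passed, at an adjusted p under 0.05 or at an unadjusted p under 0.05. From limma, 819 of 13392 genes had an unadjusted p under 0.05. At that share, none among 5 genes is near the background and no result about them. Exact 2-sided permutation of the 12 labels gave p-values from 0.391 (Asap2) to 0.714 (Clpx), where the smallest p it can give is 0.00455. All 3 vehicle mice lay within the range of the 9 nintedanib mice for Clpx, Chka, Nrg4 and Slc30a10, and 1 of 3 did for Asap2. The share of all genes with such an overlap was not counted, so this is a description and no result about the members. Over all genes 4 passed (0.0299%), with 819 at an unadjusted p under 0.05. They were the transcription factor genes Cebpb (0.77 ± 0.12) and Foxo1 (0.68 ± 0.12), the metallothionein Mt2 (2.27 ± 0.41), and Id1, an inhibitor of DNA binding (-1.71 ± 0.29). Their adjusted p from limma was 0.0302 for Cebpb and Id1 and 0.0374 for Mt2 and Foxo1. That count fell to 0 without vehicle mouse 92, 93 or 94 or without nintedanib mouse 87 or 91, and to 1 and 2 without mouse 88 and 89.

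**Figure D2:**
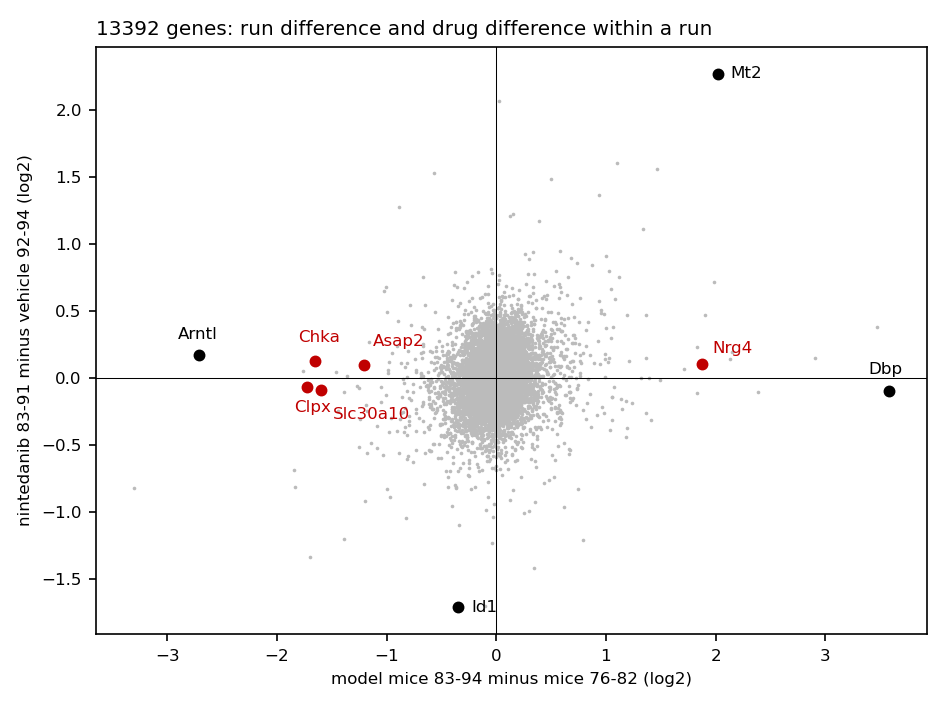
Each dot is 1 of 13392 genes, with the log2 difference between model mice 83 to 94 and 76 to 82 on the horizontal axis and the log2 difference between nintedanib mice 83 to 91 and vehicle mice 92 to 94 on the vertical axis. The 5 members (red) lie far from 0 on the horizontal axis, as their choice required. On the vertical axis they lie between -0.09 and 0.12, where that choice favours small values. Id1 (-1.71) and Mt2 (2.27) are labelled because they were called in that comparison, so their distance from 0 follows from their choice.

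The comparison of model with control asks what DEN and CCl4 did, but the controls belong to neither run. Effects of the model therefore cannot be told apart from whatever else differed between these sets of mice. The controls were set beside both runs in the phase markers. Controls 4, 49 and 50 had 6.18, 5.48 and 5.13 for Dbp and 6.20, 6.53 and 6.69 for Arntl, all of them outside the range of mice 83 to 94. Their Dbp overlapped that of vehicle mice 76 to 81, whereas their Arntl lay above the highest of those mice at 6.17, a difference of -0.43 ± 0.16. Vehicle mice 76 to 81 were therefore set against the controls. Since these mice also served to choose the members, the members' differences are given with their SE and no p.

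Clpx and Asap2 differed from the controls by less than their SE. Controls 4, 49 and 50 had 10.14, 10.05 and 10.47 for Clpx and 4.32, 4.90 and 4.69 for Asap2. The differences were 0.08 ± 0.16 and -0.00 ± 0.14, and the groups overlapped.

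The other members lay apart from the controls by more than their SE. Slc30a10 stood at 7.26, 7.03 and 7.64 in controls 4, 49 and 50, each above the highest vehicle mouse at 6.83, a difference of -0.60 ± 0.18. Chka had 6.63, 7.30 and 6.99 in the controls, with 1 control just below the highest vehicle mouse at 6.64, and a difference of -0.57 ± 0.19. Nrg4 had 4.06, 4.06 and 3.98 in the controls, each below the lowest vehicle mouse at 4.23, a difference of 0.34 ± 0.21. For these genes the vehicle mice of the first run thus lay between the controls and the second run. Their differences from controls had the sign of their run differences, and what the model and the clock each contributed was not tested. Groups without overlap were found for 2 of the 5 members and for 1068 genes (7.97%) in all.

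Against the controls the second run stood further off. Nintedanib mice 83 to 91 differed from the controls by -2.22 ± 0.17 for Slc30a10, -2.20 ± 0.18 for Chka, -1.68 ± 0.15 for Clpx, -1.19 ± 0.13 for Asap2 and 2.24 ± 0.20 for Nrg4. Vehicle mice 92 to 94 differed from them by -2.12 ± 0.21, -2.32 ± 0.22, -1.61 ± 0.19, -1.29 ± 0.16 and 2.13 ± 0.25 for the same genes in the same order. Both comparisons use the same 3 controls.

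**Figure D3:**
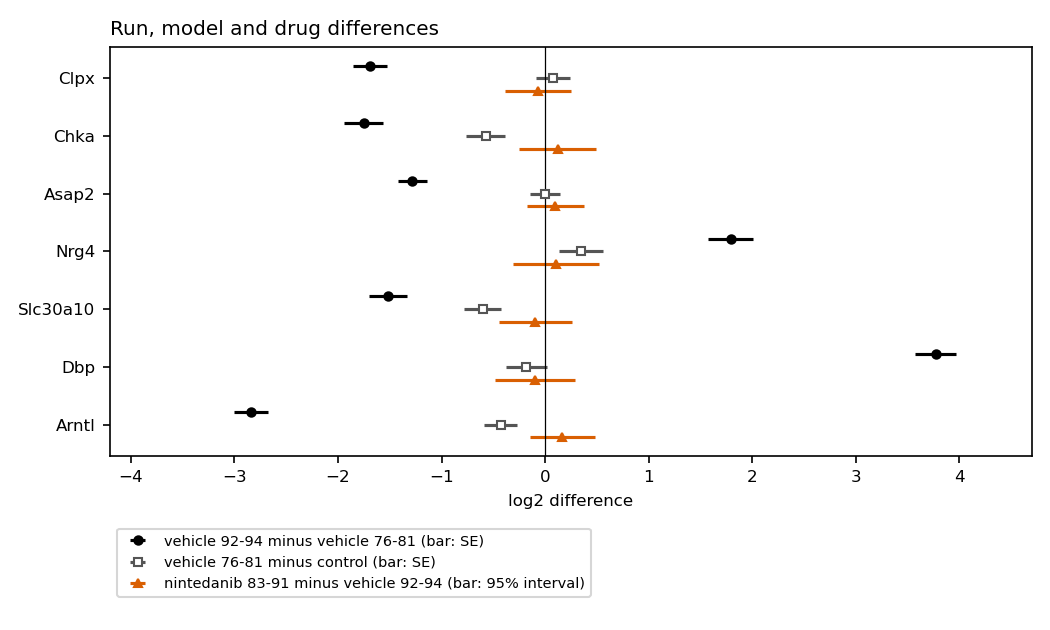
Log2 differences (horizontal axis) of each member and of Dbp and Arntl for vehicle mice 92 to 94 minus vehicle mice 76 to 81 (circles, bars are SE), vehicle mice 76 to 81 minus controls (squares, bars are SE) and nintedanib mice 83 to 91 minus vehicle mice 92 to 94 (triangles, bars are 95% intervals). The intervals of the drug difference include 0 for all 7 genes, and the run differences run from -2.84 (Arntl) to 3.77 (Dbp).

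The genes that work with each member were read from lists, whose counts by run stand beside the 0.538% of all genes that passed the same limit. At that share a count of 0 in lists of this size is near the background and no result about them. Of the 12 other measured genes of choline and phospholipid synthesis 0 differed by at least 1 without overlap between vehicle mice 92 to 94 and 76 to 81, and their median was -0.06 (all genes, -0.02). The largest difference was that of Etnk2, an ethanolamine kinase, higher by 0.81, and Selenoi, an ethanolamine phosphotransferase, had -0.45. The cholinephosphotransferase Chpt1 had -0.15. Of 25 listed mitochondrial proteases and chaperones 5 had a value, and the 4 beside Clpx ran from -0.15 (Clpb) to 0.09 (Grpel2).

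Haem synthesis, in which ClpX takes part, held 1 gene of 6 past that limit. Alas1, the first and rate-limiting enzyme of the pathway, was higher by 1.03 in vehicle mice 92 to 94, opposite to Clpx, while the other 5 ran from -0.23 (Uros) to 0.23 (Slc25a38). Alas1 had means of 8.74 in controls, 9.29 in vehicle mice 76 to 81, 10.32 in vehicle mice 92 to 94 and 10.79 in nintedanib mice 83 to 91.

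Of the 15 other metal transporters 0 passed the limit by run, with a median of -0.10. The manganese and zinc importer Slc39a8 had -0.23, and the Golgi protein gene Tmem165, linked to manganese, -0.24. Against controls 1 of the 15 rose, the zinc importer Slc39a4 (1.07 ± 0.20 in vehicle mice 76 to 81, adjusted p = 0.00335 from limma), and none fell, beside 318 of 13392 genes (2.37%) that passed, 204 higher (1.52%) and 114 lower (0.851%). That total fell to 137 without control 4 and to 121 without control 50.

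Among 14 other ErbB ligands and receptors none passed by run or against controls. Erbb4, the receptor of neuregulin 4, differed by 0.43 between the vehicle mice of the 2 runs at means of 2.10 and 2.53, near the array medians, and Egfr by -0.22. Among 22 other genes of Arf GTPases and their regulators none passed either, with Cyth1, an Arf exchange factor, at 0.85 and Gbf1, another, at -0.47. The near relatives of Asap2, Asap1 and Asap3, had -0.27 and -0.03.

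Of the 18 measured clock genes 8 passed the limit by run, Dbp and Arntl among them, 6 higher and 2 lower, beside 0.538% of all genes. Ciart, a repressor of the clock, was higher by 2.92 and Per2 by 2.10. Over all model mice the runs of 1 of the 8, the repressor gene Nfil3 (-1.75 in vehicle mice), overlapped. Against controls 1 of 18 fell, Per2 (-1.07 ± 0.25, adjusted p = 0.0205 from limma), and none rose. Among 17 genes of fasting and feeding 5 passed by run, with Pdk4, a kinase that restrains glucose oxidation (-1.52), Insig2, which holds back sterol synthesis (-1.38), and the hormone Fgf21 (-1.33) lower. Igfbp1 (-1.15), which binds insulin-like growth factors, was lower as well, and Srebf1, the activator of lipid synthesis, was higher (1.03). Over all model mice the runs of Pdk4, Igfbp1 and Srebf1 overlapped, and only Insig2 and Fgf21 of these 5 kept them apart. The median run difference of the 17 genes in vehicle mice was -0.004 (all genes, -0.02), so the list as a whole did not shift. The part of feeding in the members' values was not tested. None of the genes in these 8 lists passed between nintedanib and vehicle within mice 83 to 94, where limma called 0.0299% of all genes.

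**Figure D4:**
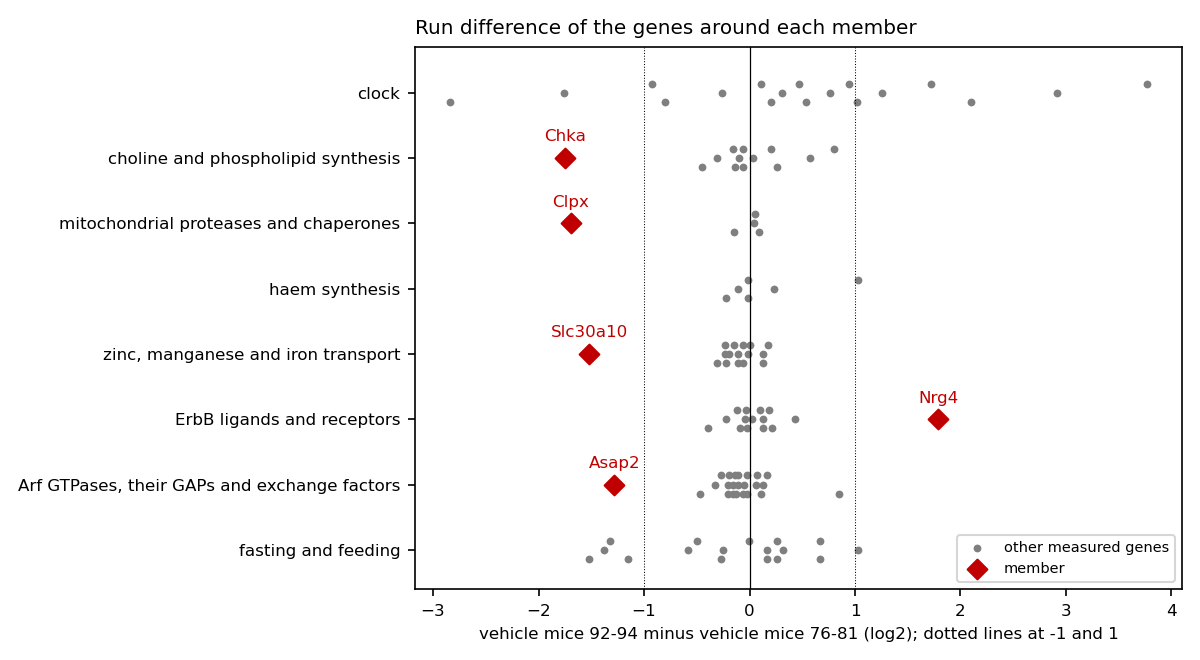
Log2 differences between vehicle mice 92 to 94 and 76 to 81 (horizontal axis) of the measured genes of 8 lists (rows), with members as red diamonds and other genes as grey points, and dotted lines at -1 and 1. Each member lies outside the lines, as its choice required, while the other genes of its own list lie inside. Over all genes 0.538% differed by at least 1 without overlap. Clock genes spread from -2.84 to 3.77.

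The genes nearest to each member were found by the root mean square difference of gene-centred log2 values over the 22 arrays. Both runs enter this distance, so the difference by which the members were chosen favours neighbours that differ by run. Closeness is therefore a description and no evidence of a link within a run. For Clpx they were Insig2 (0.26), Slc30a10 (0.30), Lrfn3 (0.31), Asap2 (0.35) and Lgalsl (0.38). Slc30a10 had Clpx (0.30), Chka (0.35), Insig2 (0.36), Ddc (0.37), which encodes aromatic amino acid decarboxylase, and Lgalsl (0.37). Chka had Lgalsl (0.33), Slc30a10 (0.35), Clpx (0.43), Lrfn3 (0.44) and Abtb2 (0.46). Clpx and Slc30a10 thus stood among each other's nearest genes, as did Chka and Slc30a10, while Chka was not among those of Clpx.

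Asap2 had Ndrg1 (0.23), Fpgs (0.25), which encodes the enzyme that adds glutamates to folate, Insig2 (0.26), Slc45a3 (0.27) and Abtb2 (0.28). Nrg4 had Tef (0.30), a clock output factor of the same family as Dbp, and the kinase Wee1 (0.33). Next came the cytochrome P450 reductase Por (0.42), the clock gene Per3 (0.43) and Ngef (0.44). Tef and Wee1 were higher in the second run by 1.71 and 2.15. No gene of the lists around Chka, Asap2 or Nrg4 was among the nearest genes of that member.

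Within a run, no relation of a member with a phase marker passed adjustment. Of 20 relations, 5 members with Dbp and Arntl in each run, 0 passed after Benjamini-Hochberg adjustment and 1 had an unadjusted permutation p under 0.05. That was Asap2 with Dbp in mice 83 to 94, with Pearson r = -0.64 (permutation p = 0.0264, adjusted 0.529) and Spearman rho = -0.66 (permutation p = 0.0221, adjusted 0.442), and r = -0.57 without the 2 mice farthest in Dbp. In mice 76 to 82 the largest was Chka with Arntl, with r = 0.67 (exact permutation p = 0.101, adjusted 0.779, n = 7) and rho = 0.68 (exact permutation p = 0.110, adjusted 0.800), and r = -0.19 without the 2 mice farthest in Arntl. Asap2 with Arntl had r = -0.59 there (exact permutation p = 0.163, adjusted 0.779) and rho = -0.57 (exact permutation p = 0.200, adjusted 0.800), and r = 0.09 without those mice. The SD of Dbp was 0.45 in mice 76 to 82 and 0.16 in mice 83 to 94, and that of Arntl 0.10 and 0.27.

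The members were also compared with each other within each run, in 20 relations chosen after the values were seen, and 0 passed after adjustment. Nrg4 and Slc30a10 in mice 83 to 94 had the smallest p, with r = -0.68 (permutation p = 0.0150, adjusted 0.299, n = 12) and rho = -0.64 (permutation p = 0.0310, adjusted 0.619). Without the 2 mice farthest in Nrg4 r was -0.86. Nintedanib mice 86, 88 and 90 combined the lowest Nrg4 of the run (5.82, 5.61 and 5.83) with its highest Slc30a10 except for vehicle mouse 94 (5.69, 5.31 and 5.49, against 5.31). In mice 76 to 82 the same pair had r = 0.15 (exact permutation p = 0.724, adjusted 0.966, n = 7) and rho = 0.21 (exact permutation p = 0.662).

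**Figure D5:**
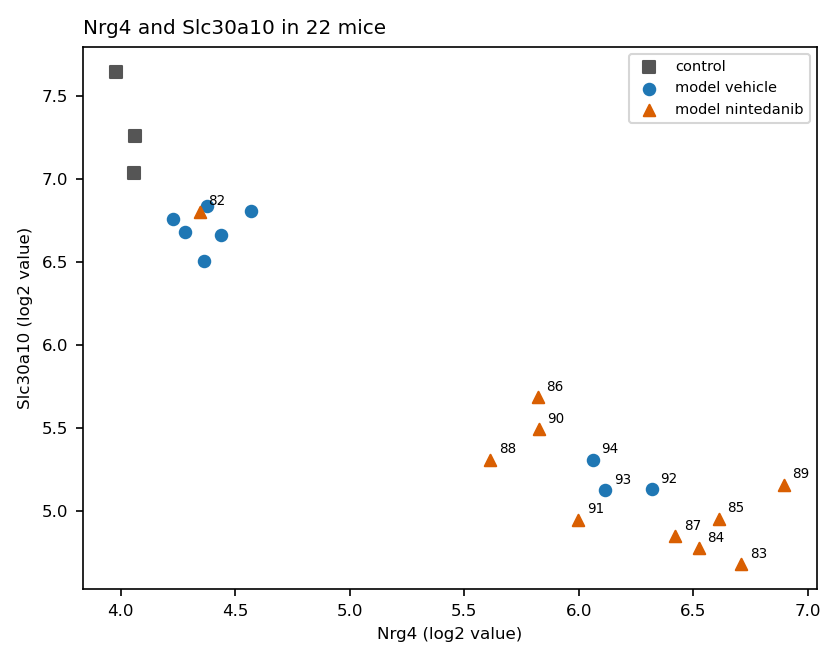
Log2 values of Nrg4 (horizontal axis) and Slc30a10 (vertical axis) in the 22 mice, with squares for controls, circles for vehicle, triangles for nintedanib and title numbers beside mice 82 to 94. The mice form 3 clusters, controls, mice 76 to 82 and mice 83 to 94, and within the last the 2 genes run in opposite directions, r = -0.68, which did not pass adjustment.

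Nintedanib mice 89 and 91 had the lowest array correlations (medians 0.950 and 0.948, the others 0.958 to 0.975), and without them the members' run differences kept their signs and moved by less than the SD within a run. Of 10 hepatocyte markers listed, 1 had a value, the tyrosine aminotransferase Tat, between 10.24 and 11.22 in all mice. In whole liver, fewer cells of a type and less RNA per cell cannot be told apart. By run, 0 of the measured markers of hepatocytes, bile duct, endothelium, macrophages, stellate cells, lymphocytes and neutrophils passed the limit of 1 without overlap, beside 0.538% of all genes. Against controls, macrophage (3 of 8), stellate cell (2 of 7), neutrophil (2 of 5), endothelial (1 of 6), bile duct (1 of 8) and lymphocyte markers (1 of 8) rose in vehicle mice 76 to 81, and none fell, beside 1.52% of all genes higher and 0.851% lower. The mean level of the macrophage list was 5.07 to 5.41 in controls and 5.58 to 6.75 in those vehicle mice. The part of these cells in the members' differences from controls was not tested.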

How the data were processed

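The authors deposited log2 values made with the robust multiarray average and a custom probe set definition with 1 probe set per Entrez gene, per the series' design text. This method sets the same distribution of probe intensities on each array before they are summarized per gene. That hides a shift shared by all genes, and the method compresses differences near background. The summarized gene values still differed slightly, with array medians from 2.83 to 3.09. Entrez IDs were matched to RefSeq symbols (GRCm38.p6) for 13242 of 13392 genes.

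All 22 arrays were fitted with limma 3.58.1 in R 4.3.3 as 5 means (controls, vehicle 76 to 81, vehicle 92 to 94, nintedanib 82, nintedanib 83 to 91), with 17 residual degrees of freedom, Benjamini-Hochberg adjustment over all genes and a threshold of 0.05. P-values from limma set a difference of means against the spread between mice. That spread was estimated from all groups together, with mice outside a comparison included, and was moderated by sharing information across genes. The number of arrays limits the precision. Members, lists and the boundary between runs were chosen with earlier results of these data known. Named genes were the members, Dbp, Arntl, list genes that passed or had the largest run difference, and the 5 nearest genes of each member. List genes named as partners of a member without passing, and the 4 genes called within mice 83 to 94, were chosen after their values were seen. Correlations used 100000 permutations, or all of them under 10 mice. Alternatives concerned scaling, filters, variance model, samples and each mouse left out.

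Tested on simulated data of 13392 genes with 200 changed, the nintedanib comparison within mice 83 to 94 recovered 31.5% of genes changed by log2 0.5 and 89.4% of those changed by 1, and the comparison with controls 29.4% and 85.1%.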

Additional observations from a re-analysis of the deposited data

Results flagged for a closer look

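Nintedanib mouse 82 was far from the other 9 nintedanib mice in each of the 5 members and both phase markers, its gap to the nearest of them being from 0.497 (Nrg4) to 0.848 (Dbp) of the group's range. It had 10.18 for Clpx, 6.38 for Chka, 4.59 for Asap2, 6.8 for Slc30a10 and 6.01 for Arntl, each the highest of the group, and 4.35 for Nrg4 and 6.19 for Dbp, each the lowest. The members were chosen because mice 76 to 82, with mouse 82 among them, stood apart from mice 83 to 94, so that choice fixed this pattern and it is given as a description. The 7 values come from 1 mouse and are not independent. In all, 28 groups were examined, and the rate of about 1 in 20 groups that chance flags does not apply to genes chosen in this way. In these 7 genes no value among vehicle mice 76 to 81, nintedanib mice 83 to 91 or all 9 vehicle mice stood apart by this measure.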

How the results depend on the processing

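No paired analysis was possible because the groups share no replicate numbers. The members' run differences kept their sign and moved by less than the SD within a run in every setting tried. The count of genes that differed by run was 43 over all model mice, 42 without arrays 89 and 91, and between 69 and 99 with a vehicle mouse left out. Nintedanib against vehicle called 92 genes without runs, where the pooled groups differ in run, with the members Chka at -0.88 and Asap2 at -0.64 and the phase markers Dbp at 2.12 and Arntl at -1.46, the reverse of their signs within mice 83 to 94, while Clpx, Nrg4 and Slc30a10 kept theirs. It called 0 genes with only the 12 mice of the second run (695 at an unadjusted p under 0.05), 2 with trend and robust variance, 8 with array weights, and between 0 and 6 with 1 mouse left out. Signs near 0 also turned for Dbp with run as an additive term (0.14), and with 1 mouse left out for Clpx (-0.17 to 0.036, above 0 without vehicle mouse 92) and Asap2 (-0.014 to 0.22, below 0 without vehicle mouse 93). Apart from the groups without runs, for which no test of a member is given, no member passed, the lowest adjusted p from limma being 0.848. The model against control count ran from 121 to 316 with 1 mouse left out. All 7 genes moved by more than the SD when all 9 vehicle mice were set against controls. No relation with Dbp or Arntl passed in any setting, and 3 weak ones turned sign, Chka with Arntl without arrays 89 and 91 (-0.076), and, with centred arrays, Chka with Dbp (0.24) and, in mice 76 to 82, Slc30a10 with Arntl (0.10). The cause was not tested. With 3 controls and 3 vehicle mice in the second run, changes of log2 0.5 are mostly missed.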
